A study of Mus musculus with 6 samples.

Results

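The insulin-like growth factor axis was followed in bone-marrow neutrophils of mice through 16 probe sets for 9 genes: the receptors Igf1r, Insr and Igf2r, the ligand Igf1, the binding proteins Igfbp6, Igfbp4 and Igfbp3, and the adaptors Irs1 and Irs2. They are 16 of 45101 rows of an Affymetrix expression table, in which a probe set pools several short probes for the same transcript. The rows were picked by probe set number, each with its gene name. The deposited table itself pairs no row with a gene, so the names were not checked against it. The axis was selected on earlier results of the same comparison, in which differences between miR-223 null and wild-type arrays were already known, and Igf1r is a published target of miR-223. The differences of these probe sets are therefore a description and support nothing on their own.

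The samples were 3 arrays of neutrophils from miR-223 null mice and 3 arrays of neutrophils from wild-type mice, without treatment in the labels. The labels do not state strain, age, sex or the way the null allele was made. Cells of both groups were taken straight from the animal and isolated with an antibody to Gr-1 on magnetic columns. This antibody also binds Ly6C, so monocytes can be carried along. Since no table at hand names the rows, markers of neutrophils and of other cells were not analysed here, and neither was the loss of miR-223 itself. In such bulk samples, fewer cells of a type and less RNA per cell cannot be told apart. Whether each array stands for another animal is not stated, and the errors cover only the spread between these arrays, which may be technical in part.

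Insulin-like growth factor 1 is a secreted ligand that binds the receptor tyrosine kinase Igf1r. The activated receptor, like the related insulin receptor Insr, phosphorylates the adaptors Irs1 and Irs2, which recruit phosphoinositide 3-kinase and so activate Akt. Binding proteins of the Igfbp family hold the ligands in the extracellular fluid, and Igf2r takes up Igf2 for breakdown in lysosomes and also sorts lysosomal enzymes. In myeloid tissue, macrophages are a known source of Igf1.

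miR-223 is a microRNA of the myeloid lineage that destabilises transcripts pairing with its seed and reduces their translation. Both strands of its hairpin are shown because they are what the null animals lack. The sequences and positions come from RefSeq on build GRCm38.p6. The 3p strand lies at chrX:96242884-96242905 and the 5p strand at chrX:96242842-96242864, both on the plus strand. Capitals mark the seed, bases 2 to 8 from the 5′ end.
mmu-miR-223-3p: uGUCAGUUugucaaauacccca
mmu-miR-223-5p: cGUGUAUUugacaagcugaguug
The reverse complement of the 3p seed, which a transcript needs for pairing with all 7 of these bases, reads AACUGAC, and that of the 5p seed AAUACAC. Of the 1679 mature mouse microRNA names in the same RefSeq table, 0 others carried either seed. Transcript sequences were not used here, so no member was searched for these sites.

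All values are the deposited log2 expression values, so a difference of 1 is 2-fold. The distributions of the 6 arrays were nearly alike, with array medians of 4.81 to 4.84. The arrays were also divided into 2 technical sets by the brightness of 18 hybridization control probe sets, which are bacterial and phage sequences. The cut was made at the largest gap in the control mean, which yields 2 sets whatever the data. The control means were 10.94 to 10.98 in the brighter and 10.72 to 10.81 in the dimmer set. Null replicates 1 and 2 and wild-type replicate 1 form the brighter set. The dimmer set is made up of null replicate 3 and wild-type replicates 2 and 3. Each difference below is given over all arrays, and for most probe sets also within these sets.

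In null neutrophils the Igfbp6 probe set and the Igf1r probe set with the higher signal of 2 (the high-signal Igf1r probe set) lay above every wild-type value, at 4.06-fold and 1.36-fold. One Igf2r probe set lay below every wild-type value, and the groups overlapped for the other 13 probe sets. Of the 16 probe sets, 12 averaged at least 4.83 on the 6 arrays, which is the median over all 45037 non-control probe sets, and entered the fit across 22519 probe sets (limma, Benjamini-Hochberg adjusted p under 0.05). The other 4, for Insr (both), Igfbp3 and Irs1, were below it and were not tested. In that fit 2 of the 12 were called, both higher in null cells. The background is 3.84% of all tested probe sets called, 2.78% higher and 1.06% lower. Without overlap between the groups were 3 of the 12, 2 above and 1 below, against 24.6% of all tested probe sets, 12.8% above and 11.8% below. With the technical set as a block the 2 calls were again Igfbp6 and Igf1r, beside 11.0% called among all, 5.57% higher and 5.38% lower. Because this comparison chose the axis, nothing is read from these shares.

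The median difference of the 12 was −0.01, beside −0.008 over all tested probe sets, and the median size of their difference was 0.18 beside 0.14. Over all 16, the null mean was the higher in 7 and the lower in 9. The 12 spread more within groups than most, with a median SD of 0.34 beside 0.153 over all tested probe sets. That wide spread was carried by Igf1, Igfbp6 and Igfbp4, while the SD was 0.104 for Irs2 and 0.134 for the high-signal Igf1r probe set.

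**Figure D1:**
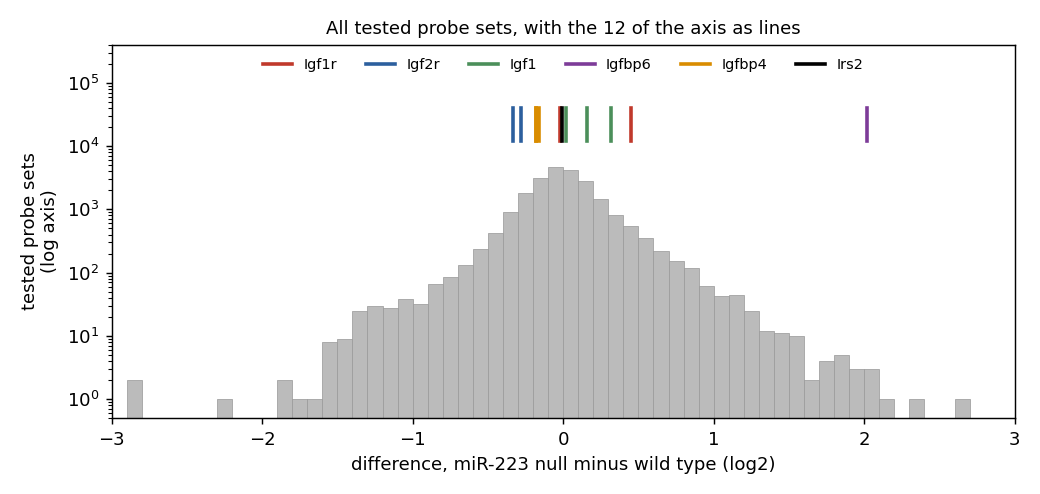
Histogram of the difference, miR-223 null minus wild type on the log2 scale, over 22519 tested probe sets (log axis of counts), with the 12 tested probe sets of the axis as coloured lines whose height carries no value. The Igfbp6 line at 2.02 stands far to the right, the high-signal Igf1r probe set lies at 0.45, and the other lines lie between −0.33 and 0.32.

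Among the receptors, Igf1r is the one that signals for Igf1. Of its 2 probe sets, the one with the higher signal read 11.92, 11.60 and 11.85 in null replicates 1 to 3 and 11.30, 11.29 and 11.44 in wild-type replicates 1 to 3. All null values lay above all wild-type values, by a gap of 0.16 between the lowest null and the highest wild-type array. Null cells averaged 11.79 ± 0.171 (SD, n = 3) and wild-type cells 11.34 ± 0.0816 (SD, n = 3). The log2 difference was 0.45, its standard error 0.0957, and the fold 1.36. The difference was 0.46 within the brighter set and 0.49 within the dimmer set, so it was as large in either set as over all arrays. Among all tested probe sets, 5.78% had a difference at least this high, this one included. The call was a narrow one, and it ended when any single array was left out, although the difference then stayed between 0.38 and 0.55.

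The low-signal Igf1r probe set did not follow this pattern. It read 5.67, 5.39 and 5.72 in null and 5.42, 5.76 and 5.67 in wild-type replicates 1 to 3, and the groups overlapped fully. Its log2 difference was −0.02 with a standard error of 0.143, and it was 0.11 within the brighter set and 0.00 within the dimmer set. Its mean over the arrays, 5.60, was not far above the filter of 4.83, and the sources used here do not say which part of the transcript either one covers. The statement that Igf1r was higher in null cells thus rests on a single probe set of 2.

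Igf2r, the receptor that clears Igf2, had lower null means in both of its probe sets. Probe set 1424112_AT read 7.84, 8.04 and 7.94 in null and 8.07, 8.20 and 8.41 in wild-type replicates 1 to 3. The null values all lay below the wild-type values, but by only 0.03 at the closest, and the difference was −0.28 with a standard error of 0.118. Probe set 1424111_AT read 8.14, 8.40 and 7.88 in null and 8.60, 8.29 and 8.51 in wild-type replicates 1 to 3, with 1 null array, replicate 2, above the lowest wild-type array. Its difference was −0.33 with a standard error of 0.151. Neither was called, with or without the technical set as a block (−0.24 and −0.42 with it). The sign was the same within both technical sets for both probe sets, at −0.13 and −0.36 for 1424112_AT and −0.33 and −0.52 for 1424111_AT in the brighter and the dimmer set. For 1424112_AT this sign was fixed in advance, as its groups did not overlap.

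Insr, the insulin receptor, was measured by 2 dim probe sets whose means differed in opposite directions by about a standard error. Probe set 1421380_AT ranged from 3.65 to 3.76 in null and from 3.46 to 3.75 in wild-type arrays, a difference of 0.10 with a standard error of 0.107. Probe set 1450225_AT ranged from 4.37 to 4.57 in null and from 4.53 to 4.65 in wild-type arrays, a difference of −0.12 with a standard error of 0.114. Both pairs of ranges overlapped. Within the brighter and the dimmer set the differences were 0.24 and 0.04 for 1421380_AT, and −0.16 and −0.02 for 1450225_AT. The standard errors of both come from a fit without the filter on low values. Detection calls were not used here, so these low values are not classed as present or absent.

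**Figure D2:**
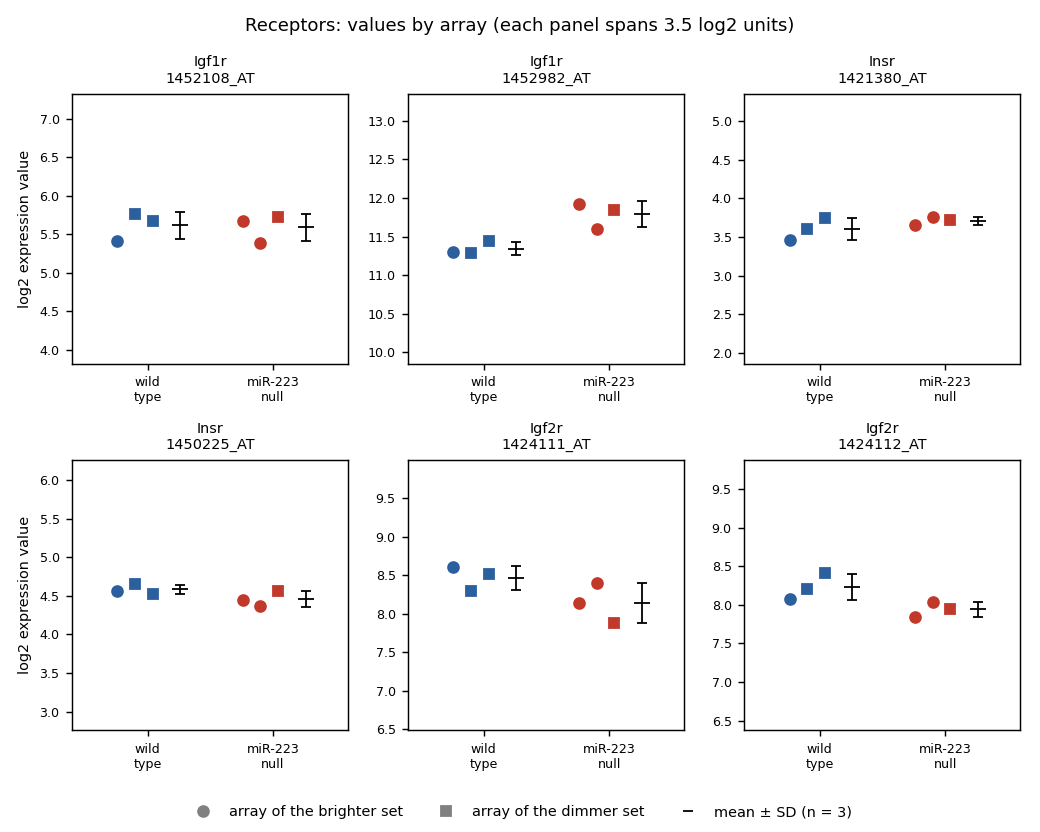
Log2 expression values of the 6 receptor probe sets on each array, in replicate order from left to right, for wild-type (blue) and miR-223 null (red) neutrophils, with circles for the brighter and squares for the dimmer technical set and the mean ± SD (n = 3) beside them. The high-signal Igf1r probe set has every null value (11.60 to 11.92) above every wild-type value (11.29 to 11.44), whereas the low-signal one overlaps fully.

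The ligand Igf1 differed between arrays more than between groups. Probe set 1437401_AT read 6.54, 7.17 and 5.56 in null and 6.64, 6.13 and 6.01 in wild-type replicates 1 to 3. The SD was 0.811 among null and 0.335 among wild-type arrays, and the difference of 0.16 had a standard error of 0.381. Probe set 1419519_AT read 6.03, 6.30 and 5.26 in null and 5.44, 5.66 and 5.52 in wild-type replicates, a difference of 0.32 with a standard error of 0.251. Null replicates 1 and 2 lay above all wild-type values here and null replicate 3 below them. Probe set 1452014_A_AT, whose suffix _A marks probes shared by transcripts of the same gene, read 6.60, 6.96 and 5.68 in null and 6.41, 6.53 and 6.25 in wild-type replicates, a difference of 0.02 with a standard error of 0.301.

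In all 3 Igf1 probe sets null replicate 2 was the highest and null replicate 3 the lowest of the 6 arrays. Null replicate 3 is the null array of the dimmer technical set. Within the brighter set the null minus wild-type difference was positive in all 3 (0.73, 0.21 and 0.37 for 1419519_AT, 1437401_AT and 1452014_A_AT), and within the dimmer set it was negative in all 3 (−0.33, −0.51 and −0.71). Without null replicate 3 the differences were 0.63, 0.59 and 0.38, and without null replicate 2 they were 0.11, −0.21 and −0.26. The direction for Igf1 thus turned with the arrays used, and no direction is given. For 1437401_AT every array of the brighter set lay above every array of the dimmer set, with means of 6.78 and 5.90. The part of the technical set, or of macrophages among the isolated cells, in the Igf1 values was not tested.

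Among the binding proteins, Igfbp6, which prefers Igf2 over Igf1, had the widest difference of the axis. Its probe set 1417933_AT read 7.34, 8.16 and 7.49 in null and 5.02, 5.54 and 6.36 in wild-type replicates 1 to 3. Every null array lay above every wild-type array, by at least 0.97, and wild-type replicate 3 was the highest of its group. Null cells averaged 7.66 ± 0.437 (SD, n = 3) and wild-type cells 5.64 ± 0.677 (SD, n = 3). The log2 difference was 2.02 (4.06-fold), its standard error 0.352, and it ranked 5 from the highest among the 22519 tested probe sets. It was 2.73 within the brighter set, 1.54 within the dimmer set and 2.13 with the set as a block. The arrays of the same group spread widely too, with a pooled SD of 0.57 that exceeded the SD of 98.4% of tested probe sets. The call ended without null replicate 1, 2 or 3 or wild-type replicate 2 (differences of 2.18, 1.77, 2.11 and 1.97) and held without wild-type replicate 1 or 3 (1.71 and 2.38). No second probe set for Igfbp6 is among the members.

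Igfbp4, which can withhold Igf1 from its receptor until a protease cuts it, was measured by 3 probe sets with overlapping groups. Probe set 1437405_A_AT read 9.19, 9.47 and 9.28 in null and 10.13, 8.84 and 9.53 in wild-type replicates 1 to 3. The null arrays lay close together (SD 0.139), inside the span of the wild-type arrays (SD 0.649). Probe set 1423756_S_AT read 8.09, 8.35 and 8.26 in null and 9.04, 7.75 and 8.46 in wild-type replicates. It followed the former closely: the offset between them stayed between −1.12 and −1.03 on all 6 arrays. The suffixes _S and _X mark probe sets whose probes may bind transcripts of several genes. Probe sets 1437405_A_AT and 1423756_S_AT may share probes, which was not checked, so they are not counted as independent measurements.

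Probe set 1437406_X_AT read 9.17, 9.42 and 9.53 in null and 9.96, 9.28 and 9.37 in wild-type replicates. Its offset from 1437405_A_AT varied by 0.62 over the arrays, against 0.09 for 1423756_S_AT, so it followed 1437405_A_AT less closely. The differences of the 3 were −0.18 (1437405_A_AT), −0.18 (1423756_S_AT) and −0.16 (1437406_X_AT), with standard errors of 0.287, 0.289 and 0.186. Wild-type replicate 1 was the highest array in all 3, and without it the differences were 0.13, 0.13 and 0.05. Within the brighter set, where this array is the only wild-type one, they were −0.80, −0.82 and −0.66, and within the dimmer set 0.10, 0.15 and 0.20. The sign for Igfbp4 therefore turned with 1 array.

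Igfbp3, the main carrier of Igf1 in blood, was the dimmest member. Its probe set 1423062_AT read 2.90, 2.76 and 2.94 in null and 2.61, 2.56 and 2.84 in wild-type replicates 1 to 3, with overlapping groups. The difference was 0.20 with a standard error of 0.0966, from the fit without the filter. With an offset of 16 added to the linear values before the logarithm it was 0.06, as such an offset shrinks differences of dim probe sets.

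**Figure D3:**
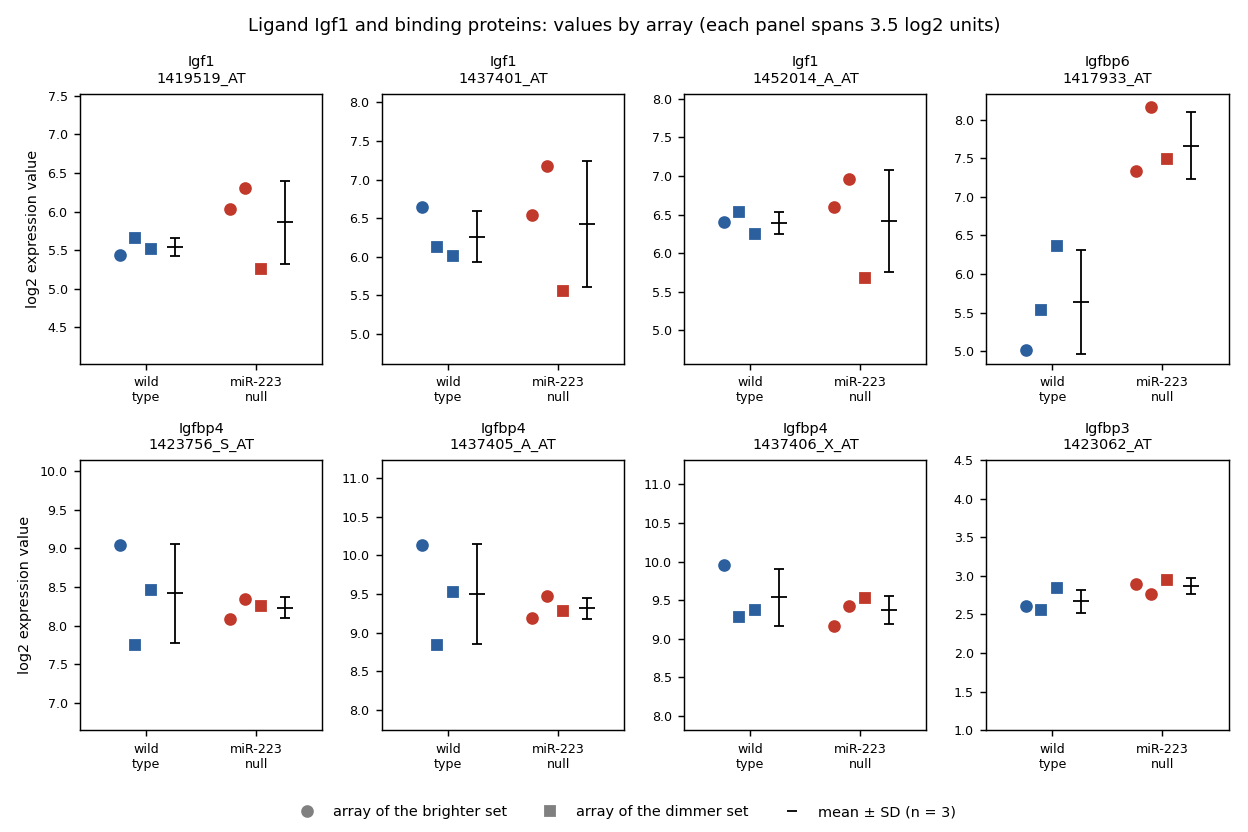
Log2 expression values of the 3 Igf1 and 5 binding protein probe sets on each array, drawn as for the receptors, wild type in blue and miR-223 null in red, with the mean ± SD (n = 3). Igfbp6 parts the groups (7.34 to 8.16 against 5.02 to 6.36), null replicate 3 is lowest for all 3 Igf1 probe sets, and wild-type replicate 1 is highest for all 3 Igfbp4 probe sets.

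The adaptors that pass on the receptors' signal had the smallest differences of the axis, together with the low-signal Igf1r probe set and the Igf1 probe set 1452014_A_AT. Irs2, with probe set 1443969_AT, read 5.87, 6.09 and 6.02 in null and 5.94, 6.11 and 5.94 in wild-type replicates 1 to 3. The 6 values lay within 0.24 of each other, and the difference was −0.01 with a standard error of 0.118. Irs1, with probe set 1423104_AT, ranged from 3.34 to 3.59 in null and from 3.46 to 3.59 in wild-type arrays, below the filter. Its difference was −0.02 with a standard error of 0.102.

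**Figure D4:**
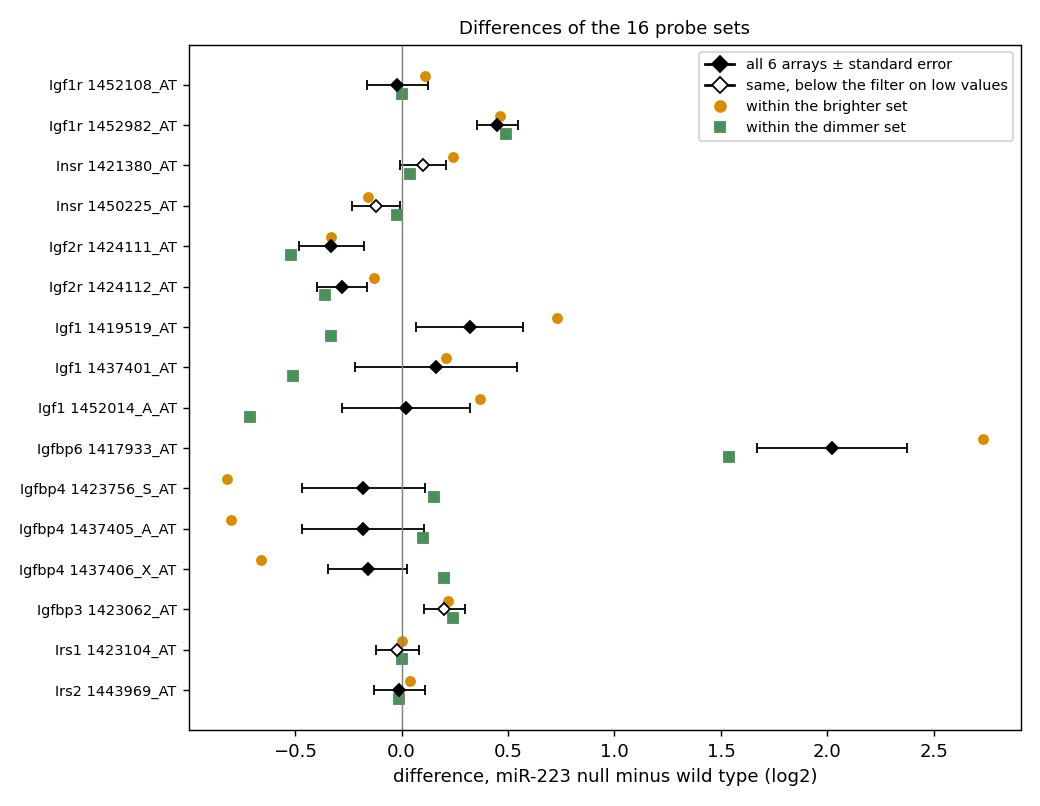
Differences, miR-223 null minus wild type in log2 units, of the 16 probe sets over all 6 arrays with the standard error (diamonds, open where the probe set lay below the filter on low values), and within the brighter (circles) and dimmer (squares) technical sets. Igfbp6 and the high-signal Igf1r probe set lie to the right of 0 in both sets and both Igf2r probe sets to the left, whereas the sets lie on opposite sides of 0 for the 3 Igf1 and the 3 Igfbp4 probe sets. Where the groups do not overlap, both sets must lie on the same side of 0.

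By order of difference over all arrays, Igfbp6 (2.02) stood apart from the next, the high-signal Igf1r probe set (0.45), by several standard errors. The following neighbours down to Igf2r 1424111_AT (−0.33) each differed from the next by less than the larger standard error of the pair, so neighbours in this order are not set apart from each other. Probe sets of the same gene gave the same sign for Igf2r, Igf1 and Igfbp4 over all 6 arrays and opposite signs for Igf1r and Insr.

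The patterns most like the mean of both Igf1r probe sets were looked for by Pearson correlation over the 6 arrays, among all tested probe sets outside the axis. As the low-signal probe set did not follow the high-signal one, this mean need not match the pattern of either. The closest were 1434826_AT (r = 0.985, difference 0.36) and 1431535_AT (r = 0.985, difference 0.16), which have no gene name here. With so many candidates and only 6 arrays, correlations of this size are a description only.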

How the data were processed

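RNA was labelled with biotin and hybridised to Affymetrix arrays, per the labels' protocols, and the submitters' processing notes name the software GCOS. No source used here gives its version or says how background, normalization and probe set summary were handled. The authors deposited 1 value per probe set and array, which was taken to be log2 from its range of 2.12 to 14.98. The sorted values of the arrays lay within 0.089 of each other at every rank, and no further scaling was applied. The group difference was estimated by limma 3.58.1 (R 4.3.3; lmFit and trended eBayes, two-sided, without covariate) over 22519 probe sets, after the 64 controls and the dimmer part were left out. The fit was tested on simulated data. The number of arrays limits the precision, with a median standard error of 0.128. Depth does not apply to arrays. Figures used matplotlib 3.10.9.

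The technical sets part at the largest gap, 0.131, in the control mean. Replicate numbers 1 to 3 occur in both groups, and deviations of like-numbered arrays correlated at 0.211, −0.124 and 0.371, and no pairing was assumed. All 9 gene symbols are in the RefSeq table. The high-signal Igf1r probe set is 1452982_AT and the low-signal one 1452108_AT. Every member was named, with its values by array or, for Insr and Irs1, with their range in each group. The 5 patterns most like the mean of both Igf1r probe sets were found by correlation, of which 2 are given. The members, lists and alternatives (filter, blocks, offset, quantile normalization, averaging, trend, left-out arrays) were chosen with earlier results of these data known. Lists of other pathway genes and of cell type markers were written as gene symbols and not analysed here, since no table at hand names the probe sets.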

Additional observations from a re-analysis of the deposited data

How the results depend on the processing

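The high-signal Igf1r probe set stayed higher in null cells in every setting tried. Its null values all lay above its wild-type values, so leaving out or averaging arrays could not turn the sign. Its call held with a replicate block (difference 0.45), with the technical set as a block (0.47), with an offset of 16 (0.45) and with quantile normalization (0.46). The last 2 could change little here. An offset of 16 is small at this signal, and the arrays were nearly alike before quantile normalization. The call ended without the filter (0.45), without the intensity trend (0.45), with null replicates 1 and 2 averaged (0.46) and without each single array (0.38 to 0.55). The standard error of this probe set was between 0.0771 and 0.113 in these fits. Igfbp6 also stayed higher in each setting, where its separated groups likewise fixed the sign when arrays were left out or averaged. Besides the omissions named above, its call ended with null replicates 1 and 2 averaged (1.98). The number of axis probe sets called, 2, became 1 without the filter, 1 without the trend, 0 with null replicates 1 and 2 averaged, and 0 to 1 with 1 array left out. Over all probe sets the 864 calls numbered 2466 under the technical set block, 119 under the averaging, and 85 to 592 with 1 array left out. The cause of these changes was not tested, although averaging and omission also leave fewer samples. The replicate block changed none of the calls in the axis (2 called) and gave 857 over all probe sets. The low-signal Igf1r probe set was never called and lay between −0.12 and 0.07 with 1 array left out. The planned count over other pathway probe sets was not run, since no table at hand names them.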
